A study of Mus musculus with 2 samples.

Results

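Dividing T cells were picked out of MC38 tumours as single barcodes that carried RNA of the CD3 complex together with RNA of the late cell cycle. The rule asked for at least 200 genes, at most 20% mitochondrial UMIs, 2 or more UMIs of Cd3d, Cd3e and Cd3g summed, and 2 or more UMIs of Mki67, Top2a, Ube2c and Birc5 summed. A UMI, or unique molecular identifier, counts 1 captured RNA molecule. Barcodes with any Ncr1, a natural killer cell gene, were left out, as were those with more than 1 UMI of the phagocyte genes Lyz2 and Cd68 or of the tumour genes Igf2bp2, Igf2bp3 and Hmga2. The rule found 72 of 8245 barcodes in the control library and 77 of 8263 in the SHP099 library, 149 of 16508 in all. The T cells that met every condition but that on division, 406 in control and 292 in SHP099, are called other T cells. Members were thus chosen by measured values, the UMIs of these genes, which are described here without a test.

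MC38 is a mouse colon carcinoma line, grown here under the skin of the flank of C57BL/6 mice. From day 5 after injection, 1 group of 6 mice was given PBS for 14 days, and the labels also describe it as untreated. The other group of 6 mice had SHP099 hydrochloride at 5 mg/kg put into the stomach daily over the same 14 days. SHP099 is an allosteric inhibitor of SHP2, the phosphatase encoded by Ptpn11 that acts in RAS-ERK signalling and downstream of inhibitory T cell receptors. Each group gave 1 library of dissociated tumour cells, no sorting step is named, and the sources used here do not say how many tumours entered it. With 1 library a group no difference has a replicate check, so no test was made, and the 95% intervals below cover counting error only.

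A T cell that meets its antigen in a tumour can enter the cell cycle and expand as a clone. Before mitosis it copies its genome with the MCM helicase, clamp loaders and polymerases, makes new histones, and then builds kinetochores and a spindle whose genes are expressed late in the cycle. In tumours, dividing T cells may be cytotoxic CD8 cells, including cells on the way to exhaustion, or regulatory T cells that carry the transcription factor Foxp3. Type I interferon induces antiviral genes in most cells, T cells included, and is known to restrain or to support T cell expansion depending on its timing.

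The late genes of the cycle often carry the CHR element, TTTGAA, in their promoters, which the DREAM and B-MYB complexes read. Promoters were taken from RefSeq on GRCm38.p6 as 300 bases, 250 before and 50 after the start site, and searched on both strands. TTTGAA stood in 67.9% of 56 promoters of kinetochore and spindle genes, in 21.6% of 51 promoters of replication genes and in 17.9% of all 32851 promoters. The E2F motif TTCCCGC was the more frequent in the replication genes, with 8.93%, 37.3% and 4.60% in the same order. The CCAAT box stood in 71.4%, 56.9% and 37.4%. These matches describe letters and not binding. Promoters of 42 of 53 listed replication genes and 50 of 58 listed kinetochore and spindle genes were matched. The windows below belong to 3 genes of the rule and to Cdc20, the activator of the anaphase-promoting complex, and are shown because they carry the CHR letters before the start site. Capitals mark TTTGAA, or its reverse complement TTCAAA, and each window is written in the direction of its gene.
Ube2c, chr2:164769829-164769928, plus strand: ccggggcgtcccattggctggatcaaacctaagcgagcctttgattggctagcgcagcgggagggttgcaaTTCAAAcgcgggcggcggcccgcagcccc
Top2a, chr11:99024190-99024289, minus strand: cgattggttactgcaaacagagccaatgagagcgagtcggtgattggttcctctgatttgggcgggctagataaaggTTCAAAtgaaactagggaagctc
Mki67, chr7:135716425-135716524, minus strand: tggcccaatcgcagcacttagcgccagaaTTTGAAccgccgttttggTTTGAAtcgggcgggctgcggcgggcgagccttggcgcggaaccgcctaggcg
Cdc20, chr4:118437344-118437443, minus strand: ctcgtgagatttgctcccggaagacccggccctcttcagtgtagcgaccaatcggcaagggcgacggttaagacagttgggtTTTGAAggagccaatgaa

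The control library held 126218180 UMIs and the SHP099 library 112901642, and 96.4% and 95.6% of barcodes passed the limits on genes and mitochondrial share. The dividing T cells summed to 468159 UMIs in control and 542914 in SHP099. A dividing T cell held a median of 5516.5 UMIs in control and 4741 in SHP099, against 2305.5 and 1958.5 in the other T cells. Some comparisons were therefore repeated with each cell drawn down to 2000 UMIs. No barcode sequence was a member in both libraries, and 2 members had a barcode that also stood in the other library, which share 100 barcodes.

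Some members stood apart by their UMIs of Col3a1 or Cd74, genes of other cell types. In control, 2 members with 31096 and 30776 UMIs held 81 and 39 UMIs of the collagen gene Col3a1, which was at 1422 and 1717 CPM in the tumour cells of control and SHP099. CPM is the UMIs of a gene per 1000000 UMIs of the summed cells. In SHP099, 8 members held 3 to 131 Col3a1 UMIs, and 2 others held 187 and 230 UMIs of Cd74, the invariant chain of antigen-presenting cells. The lowest of the 8 held few, with 3, 4, 4 and 6 Col3a1 UMIs and 0 to 2 Cd74 UMIs. The barcodes with 3 or more Col3a1 UMIs gave 13.2% of the members' UMIs in control and 34.4% in SHP099. Scrublet, a doublet caller, called 1 member a doublet in each library. Results are given for all members and for a reduced set without these barcodes, 70 cells in control and 67 in SHP099, a limit chosen after the data were seen. Barcodes past this limit are called mixed below as a label only, and whether each is a mixture was not tested. Levels of single genes are those of the reduced set unless all members are named.

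Markers of T cells and of division were found in most members of both libraries. Cd3e was detected in 90.3% of members in control and 89.6% in SHP099, and Cd8a, the CD8 co-receptor chain, in 81.9% and 68.8%. Top2a, which untangles sister chromatids, was detected in 88.9% and 88.3%, Birc5, a part of the chromosomal passenger complex, in 65.3% and 66.2%, and Ube2c, the ubiquitin carrier of the anaphase-promoting complex, in 50% and 51.9%. In the other T cells Ube2c was detected in 2.46% and 2.40%, a gap that the rule itself made. The defining NK gene Ncr1 was at 0 by the rule and Klra8 was at 0 in both libraries. Trdc, the constant chain of gamma-delta T cells, and the 3 neutrophil markers S100a8, S100a9 and Csf3r were at 0 too. Other NK and gamma-delta markers were present. In the reduced set the 6 NK markers summed to 322 and 346 CPM in members, and to 279 and 314 CPM in the other T cells. The 4 gamma-delta markers summed to 64.0 and 81.2 CPM in members, and to 92.1 and 53.6 CPM in the other T cells.

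Markers of other cells were present at low summed levels in the members of the reduced set. The choice of cells fixed part of this. Lyz2, Cd68, Igf2bp2, Igf2bp3 and Hmga2 are among the markers, and the rule and the gates used them in opposite directions. The reduction on Col3a1 is likewise not independent of the fibroblast sum. The 8 phagocyte markers summed to 226 CPM in the control members and 268 CPM in the SHP099 members, and to 35237 and 35346 CPM in phagocytes. The 7 tumour markers summed to 56.6 and 21.1 CPM, against 682 and 612 CPM in tumour cells, with Krt8 and Krt18 at 0. The 4 fibroblast markers summed to 68.9 and 24.1 CPM, and before the reduction to 397 and 545 CPM. The 4 B cell markers summed to 0 and 9.02 CPM.

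Cells near the limit of the rule had less RNA of division. Among T cells, 64 in control and 55 in SHP099 had 1 UMI of the 4 division genes and were not members, while 22 and 18 had 2 and were. The most was 46 UMIs in control and 34 in SHP099. The other kinetochore and spindle genes summed to 822 CPM in control cells with 1 UMI, 777 CPM in those with 2 and 4211 CPM in those with 4 or more. In SHP099 the same sums were 583, 1611 and 3792 CPM. In control the cells just inside the limit were thus at the level of those just outside.

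A larger share of T cells was dividing in the SHP099 library. In control 72 of 478 T cells were members, 15.1% (exact binomial, or Clopper-Pearson, interval 11.98 to 18.6%). In SHP099 it was 77 of 369, 20.9% (16.8 to 25.4%). SHP099 over control, the ratio was 1.39 (counting interval 1.04 to 1.85). The reduced set gave 14.9% and 18.9%, and a ratio of 1.27 whose interval, 0.93 to 1.72, includes 1. Drawn down to 2000 UMIs, with 154 control and 160 SHP099 T cells too shallow to enter, the expected shares were 14.0% of 324 and 22.3% of 209 cells. Their ratio was 1.59 (1.10 to 2.30), and 1.60 in the reduced set. In control 152 of 406 other T cells and 2 of 72 members were too shallow. In SHP099 these were 156 of 292 and 4 of 77. The depth limit thus took a larger part of the other T cells in SHP099, and its effect on the ratio was not tested. The direction was thus the same at both depths and with the mixed barcodes left out, while the lower bound passed below 1 in the reduced set at full depth. Before the limits on Ncr1, phagocyte and tumour genes, 112 of 559 control barcodes with 2 or more Cd3 UMIs passed the limit on division. In SHP099 these were 93 of 408, so the libraries lay closer together there. Of the 112 and 93, the limit on tumour genes took 28 and 9, and that on phagocyte genes 18 and 11. The part of these exclusions in the ratio was not tested.

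The same 4 genes were read in the other gated cells of each library. At 2000 UMIs, the expected share with 2 or more division UMIs was 3.61% of phagocytes in control and 10.1% in SHP099, a ratio of 2.79 (2.19 to 3.57). For tumour cells it was 26.9% and 23.0%, a ratio of 0.85 (0.76 to 0.96). For NK cells it was 15.4% of 43 and 10.7% of 26 cells, a ratio of 0.69 (0.19 to 2.58). T cells and phagocytes of the SHP099 library thus had the higher share, and tumour cells the lower one. Whether the ratio of T cells differs from that of phagocytes was not tested.

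**Figure D1:**
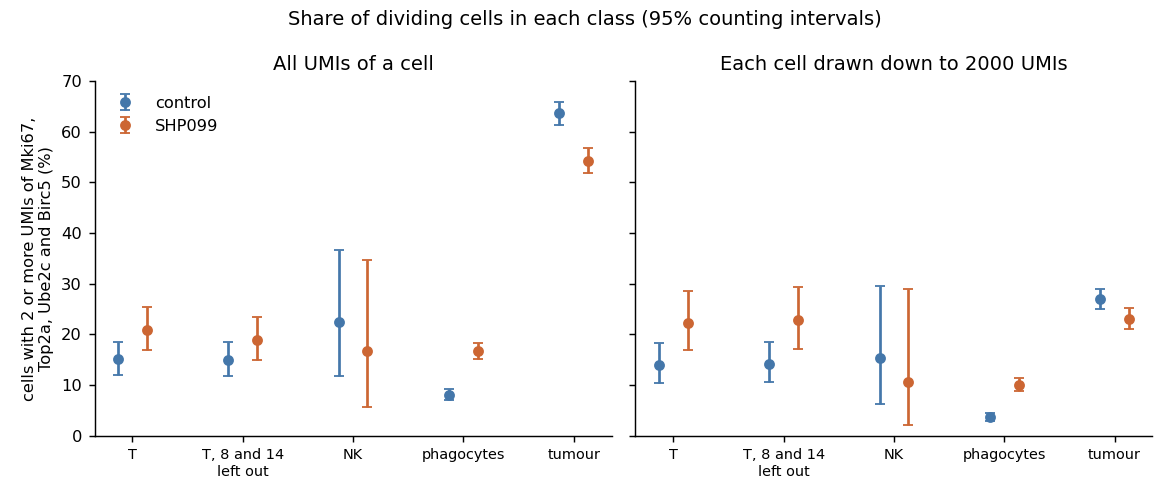
Share of cells with 2 or more UMIs of Mki67, Top2a, Ube2c and Birc5 in each gated class, in percent, for the control and SHP099 libraries, with all UMIs (left) and after drawing cells down to 2000 UMIs (right); bars are 95% counting intervals. T cells go from 14.0 to 22.3% and phagocytes from 3.61 to 10.1% on the right, while tumour cells go from 26.9 to 23.0%.

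Most dividing T cells were CD8 cells, and fewer were in the SHP099 library. A UMI of Cd8a or Cd8b1 without Cd4 was found in 64 of 72 members in control, 88.9% (79.3 to 95.1%). In SHP099 it was found in 55 of 77, 71.4% (60.0 to 81.2%), and in the reduced set in 88.6% and 76.1%. At 2000 UMIs the expected shares were 83.3% and 67.4%, against 81.3% and 71.0% of the other T cells. At that depth the expected shares of phagocytes with a Cd8a or Cd8b1 UMI were 0.23% and 0.20%. Phagocytes were gated to have no Cd3 UMI, so these shares cannot set the level of free RNA in T cells. The CD8 share of members was thus lower in SHP099 at both depths, and so was that of the other T cells.

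Cells with Foxp3 RNA made up more of the dividing T cells in the SHP099 library at full depth. Foxp3 was found in 3 of 72 members in control, 4.17% (0.87 to 11.7%), and in 13 of 77 in SHP099, 16.9% (9.31 to 27.1%). The reduced set had 3 of 70 and 10 of 67, with 5 and 13 Foxp3 UMIs. Cd4 was found in 5 of 77 SHP099 members, and 4 of these had no Foxp3. Whether each Foxp3 cell is a regulatory T cell was not tested. The other T cells gave 4.93% and 6.85%. At 2000 UMIs the expected shares of members lay closer, at 2.74 and 6.52%, with overlapping intervals of 0.31 to 9.77% and 2.08 to 14.8%. Phagocytes gave 0.033% and 0.025% at that depth. Read the other way, 3 of 23 Foxp3 cells in control and 13 of 33 in SHP099 were dividing, 13.04% and 39.4%, or 3 of 21 and 10 of 30 in the reduced set. At 2000 UMIs these shares were 11.96% and 16.7%, with intervals of 0.66 to 44.7% and 2.21 to 47.9%, and 13.7% and 16.5% in the reduced set.

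Il2ra, the high-affinity chain of the interleukin-2 receptor that regulatory and newly activated T cells carry, had the same direction as Foxp3. It was at 19.7 CPM in control members and 90.2 CPM in SHP099 members, a log2 ratio of 2.14 (interval 1.04 to 3.53), and at 57.2 and 69.3 CPM in the other T cells. Its UMIs came from 8 of 70 cells in control and 14 of 67 in SHP099. In the CD8 members it was at 19.02 and 15.9 CPM. Ikzf2, which encodes Helios, was at 379 and 656 CPM in members and at 383 and 676 CPM in the other T cells, so its difference was as large outside division. Of 10 listed regulatory T cell genes measured, 6 were at least 1.5-fold higher in SHP099 and none as much lower, with a median log2 ratio of 0.86, beside 16.6% and 9.41% of all genes. Genes low in control, such as Foxp3 with 5 UMIs there and 13 in SHP099, could pass the level filter through SHP099 alone. Over all members the counts were 4 of 9 with a median of 0.48, beside 17.5%. The CD8 members without Foxp3 had 1 of 6 with a median of -0.07, beside 17.8%, so the list was not above the background there. In the other T cells 4 of 11 were higher, with a median of 0.30, beside 8.02%.

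**Figure D2:**
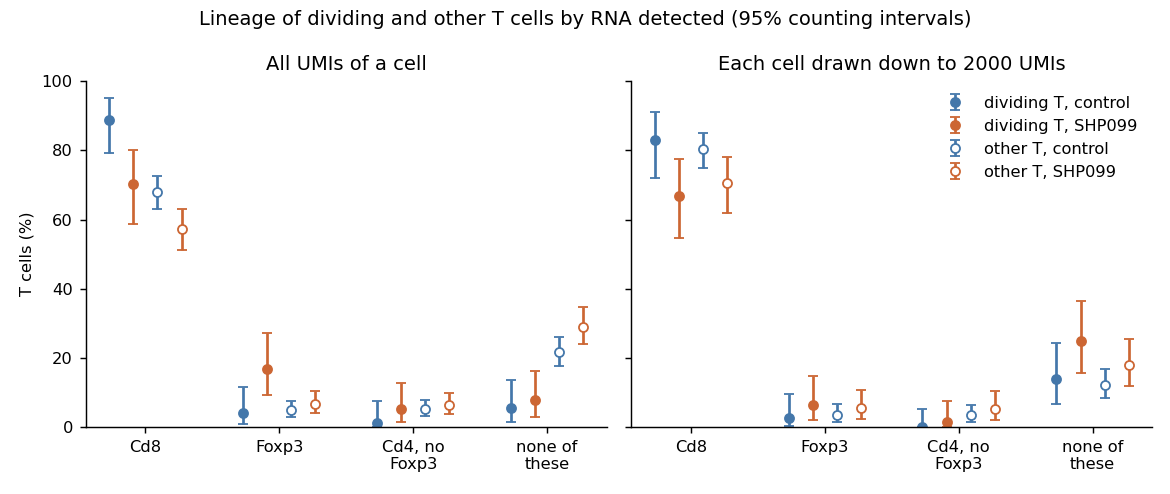
Share of dividing T cells (filled) and other T cells (open) by the lineage RNA detected, in percent, with all UMIs (left) and at 2000 UMIs (right); Cd8 here means without Cd4 or Foxp3, and bars are 95% counting intervals. The Foxp3 share of dividing T cells is 4.17% in control and 16.9% in SHP099 on the left, and 2.74 and 6.52% on the right.

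Members were a larger share of each kind of T cell read in the SHP099 library, so this was not particular to the 2 kinds given below. At full depth members were 18.6% of CD8 cells in control and 24.6% in SHP099. For cells with Gzmb these shares were 17.9% and 23.4%, and for cells with Il7r 15.3% and 20.3%. With a UMI of Pdcd1 (PD-1) or Havcr2 (TIM-3), inhibitory receptors of activated T cells, 42 of 192 CD8 cells in control and 31 of 97 in SHP099 were members, 21.9% and 32.0%. Of T cells with Tcf7 or Ly6c2, genes listed here for naive and memory T cells, and without Pdcd1, 11 of 140 in control were members, 7.86%. In SHP099 it was 25 of 123, 20.3%. Ly6c2 was the far more frequent of the pair. It was detected in 44.4% of members and 50.2% of other T cells in control, and in 48.1% and 46.9% in SHP099. Tcf7 was detected in 2.78% and 4.93% in control, and in 6.49% and 2.40% in SHP099. The reduced set gave 7.97% and 16.2% for the second kind. At 2000 UMIs the shares for the Pdcd1 or Havcr2 cells were 11.1% and 20.4%, and for the Tcf7 or Ly6c2 cells 8.63% and 21.5%. The intervals overlapped for both kinds, from 5.99 to 18.3% and 10.7 to 33.5% for the first and from 4.03 to 15.7% and 12.3 to 33.6% for the second. The full-depth order of the 2 kinds was not kept at 2000 UMIs in SHP099.

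Members of both libraries held cells with more replication RNA and cells with more mitotic RNA. With each cell at 2000 UMIs, replication UMIs outnumbered those of the other kinetochore and spindle genes in 35 of 70 control members and 35 of 73 SHP099 members. The reverse held in 29 and 32, and 6 in each library were equal. The median member held 6 replication UMIs in both libraries, and 5.5 and 7 kinetochore and spindle UMIs. In the other T cells the medians were 2 replication UMIs and 1 kinetochore and spindle UMI in both libraries. Histone UMIs, a mark of ongoing replication, were at 0 in 19 of 70 and 14 of 73 members. RNA of replication histones mostly lacks a poly(A) tail, so a 3' library captures only part of it.

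**Figure D3:**
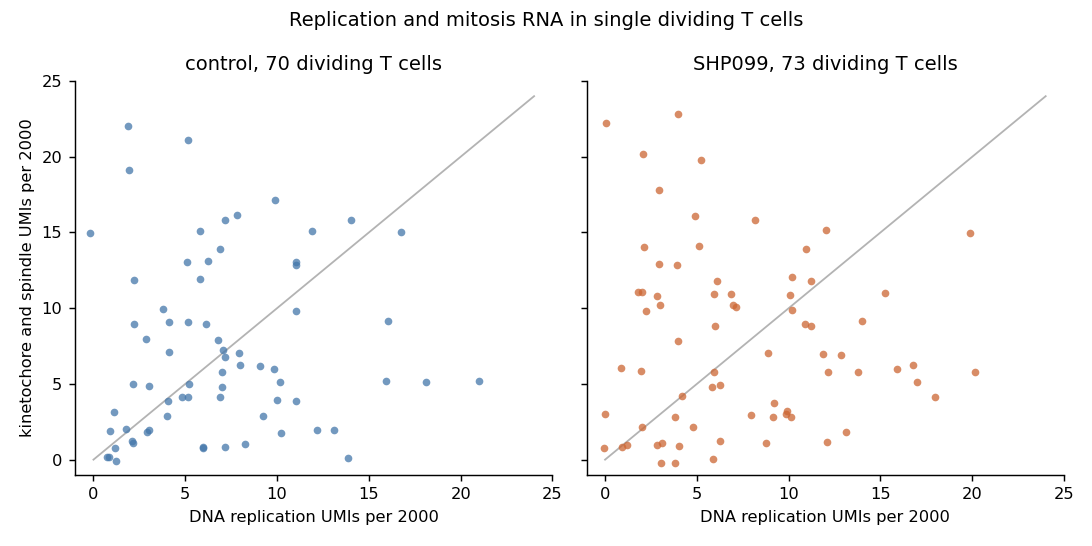
UMIs of DNA replication genes (horizontal) and of kinetochore and spindle genes without the rule's genes (vertical) in each dividing T cell at 2000 UMIs, with a small random shift of the points and the line of equality. Both libraries have members on either side of the line, 35 below and 29 above in control and 35 below and 32 above in SHP099.

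Against the other T cells, members had more RNA of nearly every division gene. The rule chose the members by this contrast, so these values are a description and nothing is read from them. Of 4592 genes measured in control in the reduced set, 17.7% reached 1.5-fold higher and 13.8% reached 1.5-fold lower, and of 4681 in SHP099 20.1% and 13.5%. Over all members the shares were 16.5% and 14.9% in control and 20.2% and 14% in SHP099. Of the kinetochore and spindle genes 36 of 37 measured in control and 38 of 39 in SHP099 were higher, with median log2 ratios of 3.47 and 3.73. The exception in both was Pttg1, the securin that holds back separase, at 83.7 and 129 CPM in members and 105 and 107 CPM in the other T cells. Of the replication genes 32 of 35 and 32 of 36 were higher, with medians of 1.63 and 1.44, led in control by the histone chaperone Asf1b at 3.21 and the GINS subunit Gins2 at 3.06. Replication histones had medians of 3.01 and 2.74, and Hist1h1b, a linker histone, was at 258 and 250 CPM in members and at 2.91 and 4.73 CPM in the other T cells.

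The enzymes that supply DNA precursors had medians of 1.14 and 1.19. Rrm2, the regulated subunit of ribonucleotide reductase, was at 167 and 241 CPM in members and 18.4 and 12.6 CPM in the other T cells. Cyclins differed by the phase they serve. Ccna2, the cyclin of S phase and early mitosis, had log2 ratios of 4.70 and 5.01, and the mitotic Ccnb2 was at 155 and 217 CPM in members and 9.69 and 12.6 CPM in the other T cells. Ccnd2, a cyclin of early G1 that mitogens induce, had -0.81 in both libraries, and Ccnd3 0.10 and -0.15. Of the CDK inhibitors, Cdkn1b, which encodes p27, was at 46.8 and 78.2 CPM in members and 129 and 126 CPM in the other T cells. Cdkn2c, an inhibitor of CDK4 and CDK6, had 0.48 and 1.68, and Cdkn3, a phosphatase that acts on cyclin-dependent kinases, 4.02 and 3.07.

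Outside the division lists, the named genes that were higher in both libraries included further parts of replication and the spindle. Pclaf, a partner of the clamp PCNA, was at 1063 and 1239 CPM in members and 49.4 and 63.0 CPM in the other T cells. Stmn1, which destabilises microtubules, was at 1243 and 1366 CPM against 101 and 91.4 CPM. The tubulins Tuba1b and Tubb5 had log2 ratios of 3.22 and 2.69 in control and 3.27 and 2.79 in SHP099. Plk4, which starts centriole copying, had 1.70 and 2.18. The naming rule also gave the matrix genes Col4a1, Col6a1, Serpinh1 and Dcn. Their ratios over all members were between 1.54 and 4.08, and in the reduced set those of Col6a1 were -0.07 and -0.17 and that of Dcn in SHP099 was -1.60.

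Genes of naive and memory T cells were lower in members. Without the mixed barcodes 8 of 13 measured in control and 10 of 15 in SHP099 were at least 1.5-fold lower, with medians of -0.82 and -0.78, and over all members 9 of 13 and 13 of 16. In CD8 cells alone they were 6 of 12 and 5 of 12, beside 13.4% and 13.2% of all genes. Il7r, the receptor that keeps resting T cells alive on interleukin-7, was at 81.2 and 54.1 CPM in members and 163 and 115 CPM in the other T cells. Bcl2, which blocks apoptosis, was at 81.2 and 123 CPM against 188 and 224 CPM. Ly6c2, a surface protein of memory CD8 cells, was at 423 and 556 CPM against 1075 and 1176 CPM. The chemokine gene Ccl5 was lower as well, with log2 ratios of -1.35 and -1.69.

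The other metabolic lists and the ribosomal list had medians from -0.19 to 1.00. Nuclear genes of the respiratory chain had medians of 0.35 and 0.34. In control 16 of 76 and in SHP099 16 of 75 were at least 1.5-fold higher in members. These shares, 21.1% and 21.3%, were near those of all genes, 17.7% and 20.1%. The proteasome list had 0.23 and 0.31, and cholesterol synthesis, which supplies new membrane, 0.71 and 1.00 over 8 and 9 genes. Glycolysis had -0.05 and 0.34, and ribosomal proteins -0.09 and -0.19. The exhaustion list had -0.28 and -0.38, with 1 of 15 and 6 of 17 lower. The cytotoxic list had -0.23 and -0.18, with 4 of 23 and 3 of 23 lower. Of all genes 13.8% and 13.5% were as much lower. With the mixed barcodes kept, both medians were lower in SHP099. Over all members the exhaustion medians were -0.28 and -0.57, with 5 of 14 and 8 of 17 lower, and the cytotoxic medians -0.33 and -0.78, with 4 of 23 and 13 of 22 lower. Of all genes 14.9% and 14% were as much lower there. The medians over all genes were 0.02 and 0.06 in the reduced set.

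**Figure D4:**
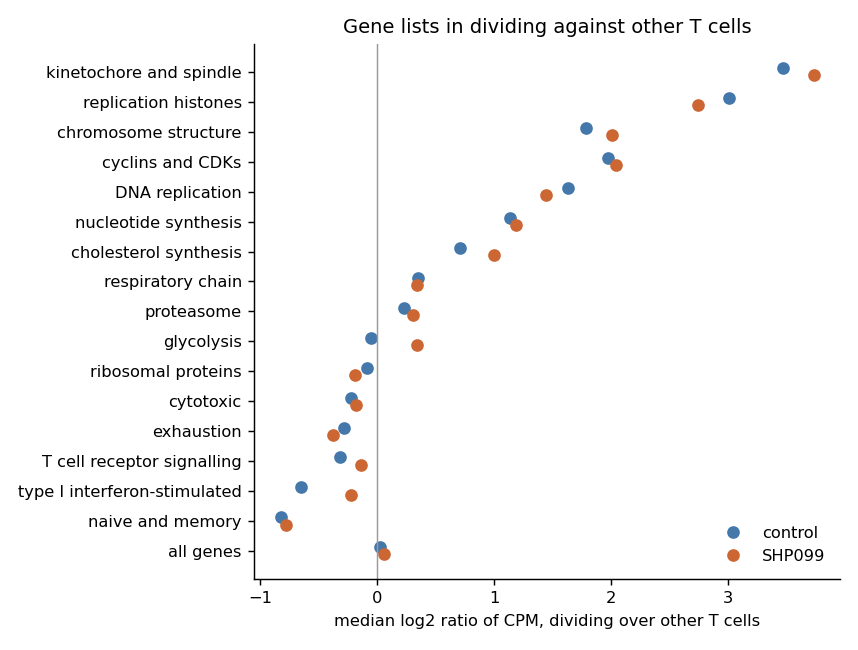
Median log2 ratio of CPM, dividing over other T cells, for gene lists in the control and SHP099 libraries, reduced set. The points run from 3.47 and 3.73 for kinetochore and spindle genes to -0.82 and -0.78 for naive and memory genes, and the interferon list is at -0.65 in control and -0.22 in SHP099.

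Within the dividing T cells, genes that respond to type I interferon were higher in the SHP099 library. The rule for members did not use this contrast. Over all members 17.5% of 4777 measured genes reached 1.5-fold higher in SHP099 and 7.31% reached 1.5-fold lower, with a median log2 ratio of 0.09. For the reduced set the shares were 16.6% and 9.41% of 4631 genes, with a median of 0.11. Of the interferon list, 29 of 37 measured genes were higher and 0 lower over all members, with a median of 0.99. The reduced set had 32 of 37 higher and 0 lower, with a median of 1.15, and 55 genes had been listed. A gene was measured if the mean of both libraries reached 20 CPM, so it could enter through SHP099 alone. Rsad2, at 12.3 and 42.1 CPM, and Usp18, at 19.7 and 36.1 CPM, were below 20 CPM in control. Such genes could not be counted as lower. Over 12 settings, including a filter on the other T cells, the median lay between 0.80 and 1.15.

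Isg15, a ubiquitin-like modifier, was at 66.5 CPM in control members and 298 CPM in SHP099 members, a log2 ratio of 2.15 (interval 1.54 to 2.84). In the other T cells it was at 216 and 241 CPM, a ratio of 0.16. Its UMIs came from 24 of 70 members in control and 31 of 67 in SHP099, and without the top cell of each library the ratio was 1.94. The control members were thus the low group of the 4, and the SHP099 members were not below the other T cells.

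Ifi27l2a, a small interferon-induced mitochondrial protein and the most abundant gene of the list, was at 2028 and 5327 CPM in members and 3986 and 5967 CPM in the other T cells. The log2 ratios were 1.39 (1.27 to 1.51) and 0.58. Irf7, the transcription factor that amplifies interferon production, was at 39.4 and 105 CPM in members and 86.3 and 181 CPM in the other T cells. Ifit1, which binds RNA that lacks the cap methylation of the host, was at 24.6 and 72.2 CPM in members and 40.7 and 104 CPM in the other T cells. Its ratios were 1.51 and 1.33, close to each other, from 10 and 24 UMIs in members. Ifit3, its partner, was at 27.1 and 66.2 CPM in members, and 63.6% of the control UMIs came from 1 cell.

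The few listed genes without that difference were Irf9, the DNA-binding part of the complex that type I interferon activates, at 36.9 and 33.1 CPM, and Ifi35 at 88.6 and 93.2 CPM. Shisa5, Parp14 and Ly6a were higher by less than 1.5-fold, with log2 ratios of 0.33, 0.48 and 0.55.

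The core of the interferon-stimulated response element, GAAA, 2 bases of any kind and GAAA again, was searched after the values were seen. It stood in 46.4% of 56 promoters, which belong to 42 matched genes of the list, and in 3.44% of all promoters. Of the 42 genes, 23 had it in at least 1 promoter. The windows show the copies nearest the start sites of 3 of the genes just described. In Ifit1 and Ifit3 the element lies on the opposite strand, so that its letters appear reversed and complemented, and in Isg15 the 3 copies overlap.
Ifit1, chr19:34640759-34640858, plus strand: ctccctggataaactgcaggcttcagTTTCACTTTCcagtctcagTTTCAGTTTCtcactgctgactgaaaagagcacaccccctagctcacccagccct
Ifit3, chr19:34583362-34583461, plus strand: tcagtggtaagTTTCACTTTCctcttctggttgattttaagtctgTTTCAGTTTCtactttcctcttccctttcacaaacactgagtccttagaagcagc
Isg15, chr4:156200830-156200929, minus strand: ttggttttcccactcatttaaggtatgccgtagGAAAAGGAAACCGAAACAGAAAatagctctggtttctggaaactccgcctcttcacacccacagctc

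The other T cells of the SHP099 library were higher for the list as well, by less. Over all other T cells 21 of 46 measured genes were at least 1.5-fold higher and 1 lower, with a median of 0.57, beside 7.85% and 4.96% of 4597 genes. Without the mixed barcodes 23 of 43 were higher and 0 lower, with a median of 0.60, beside 8.02% and 5.08% of 4566 genes. Summed over the list, control members were at 6028 CPM and SHP099 members at 12383 CPM, and the other T cells at 9839 and 14407 CPM. A large part of these sums was Ifi27l2a. It gave 824 of the 2449 list UMIs of control members and 1771 of the 4117 of SHP099 members. Over all members the sums were 6107 and 11381 CPM. At 2000 UMIs a control member held a median of 10.5 list UMIs and a SHP099 member 21, and the other T cells 15 and 21.5. By this count, which mixes lineages and includes Ifi27l2a, the gap between members and other T cells was larger in control than in SHP099. No test of this difference between differences was possible with 1 library a group.

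Lineage moved with this result. The list summed to 15975 CPM in the 3 Foxp3 members of control and 21361 CPM in the 10 of SHP099, and to 5349 and 9062 CPM in CD8 members. In CD8 members alone 27 of 35 measured genes were at least 1.5-fold higher and 1 lower, with a median of 0.98, beside 17.8% and 10.5% of 4551 genes. Members were the lower group among CD8 cells in both libraries, since the other CD8 cells summed to 8322 and 10780 CPM, and the list's median ratios of members to them were -0.61 and -0.36. In the other CD8 cells 18 of 43 were higher and 0 lower, with a median of 0.50, beside 10.6% and 7.89% of 4383 genes. Apoe and C1qa, genes of phagocytes, were in members at 0.96% and 0.94% and at 0.38% and 0.78% of their phagocyte levels, and at 139% and 112% and at 98.8% and 166% of their low tumour cell levels. The part of RNA from other cells in the interferon result was not tested.

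**Figure D5:**
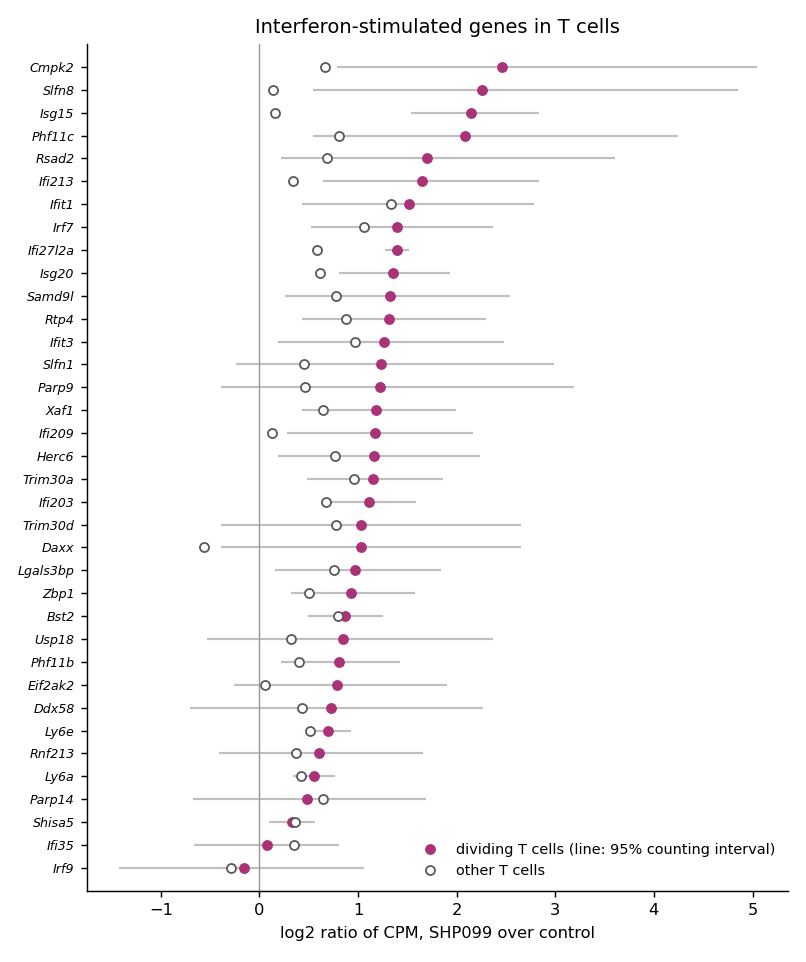
Log2 ratio of CPM, SHP099 over control, of the 37 interferon-stimulated genes measured in dividing T cells of the reduced set (filled, with 95% counting intervals) and the same genes in other T cells (open); 1 of the 37 is not shown. The filled point lies right of the open one for most genes; Isg15 is at 2.15 and 0.16, Ifit1 at 1.51 and 1.33, and Irf9 lies left of 0 in both.

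Genes induced mainly by interferon-gamma differed less as a group. Of the reduced set's measured genes 6 of 22 were at least 1.5-fold higher in SHP099 and 2 lower, with a median of 0.29. Of all genes 16.6% and 9.41% were. Over all members the list had 9 of 21 and 0, with a median of 0.36, beside 17.5% and 7.31%. The other T cells had 0 of 23 either way, with a median of -0.04, beside 8.02% and 5.08%. Igtp, a GTPase of cell-autonomous defence, was at 17.2 CPM in 7 of 70 control members and 108 CPM in 28 of 67 SHP099 members, a ratio of 2.58 (1.46 to 4.06). In the other T cells it was at 108 and 89.8 CPM. The antigen presentation genes B2m and H2-K1 had ratios of 0.27 and 0.30.

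The cytotoxic list had a median near 0 in the reduced set. Of 23 measured genes 3 were at least 1.5-fold higher and 5 lower, with a median of -0.09, beside 16.6% and 9.41% of all genes. Over all members 1 was higher and 8 were lower, with a median of -0.45, beside 17.5% and 7.31%. Gzmb, the main granzyme of killer T cells, was at 1236 and 899 CPM in members, a ratio of -0.46 (-0.67 to -0.25), from 64.3% and 64.2% of the cells. In the other T cells it was at 1189 and 1165 CPM. Prf1, the pore former perforin, was at 160 and 150 CPM. Ifng was at 217 and 135 CPM in members, from 30 of 70 and 19 of 67 cells, a ratio of -0.67 (-1.23 to -0.14), and at 105 and 113 CPM in the other T cells.

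The chemokines Ccl3 and Ccl4, which attract T cells and monocytes, went opposite ways. Ccl3 was at 354 CPM in control members and 135 CPM in SHP099 members, but 61.1% of the control UMIs came from 1 cell, and without the top cells the ratio was -0.61 in place of -1.38. Ccl4 was at 500 and 978 CPM, a ratio of 0.97, or 1.04 without the top cells. Gzmd was at 27.1 and 75.2 CPM, and all 25 SHP099 UMIs came from 1 cell.

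Inhibitory receptors and exhaustion genes had a median of -0.11, with 3 of 15 higher and 3 lower, beside 16.6% and 9.41% of all genes. Pdcd1 was at 214 and 199 CPM in members and 261 and 172 CPM in the other T cells. Lag3 was at 207 and 129 CPM, a ratio of -0.67 (-1.24 to -0.13), and at 284 and 225 CPM in the other T cells. Tox, a transcription factor of exhausted T cells, was at 106 and 75.2 CPM, with an interval of the ratio from -1.27 to 0.25.

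The kinetochore and spindle list and the replication list had small positive medians between libraries in the reduced set, beside 0.11 for all genes. Of 53 kinetochore and spindle genes 9 were at least 1.5-fold higher in SHP099 and 3 lower, with a median of 0.26. With 16.6% of all genes higher and 9.41% lower, the share of higher ones was near the background. Over all members 5 and 6 of 49 were higher and lower, with a median of 0.01, beside 17.5% and 7.31%. In CD8 members 18 of 53 were higher and 3 lower, with a median of 0.32, beside 17.8% and 10.5% of all genes. There the chromosome structure list had 7 of 19 higher and the cyclins and their kinases 5 of 15. Over all lineages of the reduced set 5 of 41 replication genes were higher and 1 lower, with a median of 0.16. These shares were below those of all genes, 16.6% and 9.41%. The rule fixes a floor for 4 of these genes, so levels near it are not independent of the choice. Ccnb1, the cyclin that drives entry into mitosis, was at 14.8 CPM in 5 of 70 control members and 60.2 CPM in 17 of 67 SHP099 members, with a log2 ratio between 0.66 and 3.63 by its interval. Hmgb2, a chromatin protein of cycling cells, was at 2304 and 3444 CPM, and Mki67 at 209 and 286 CPM. Ptpn11, the target of SHP099, was at 41.8 and 33.1 CPM, from 17 and 11 UMIs, with an interval of the ratio from -1.58 to 0.84. Ptpn6, which encodes the related SHP1, was at 108 and 162 CPM, with an interval from -0.02 to 1.19.

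By the naming rule over all members, the 12 genes with the largest ratios were Cd74, Hes1, Cxcl10, Ifit1, Inhba, Rbm28, Col4a1, Isg15, Ccl2, Ifitm3, Igtp and Rtp4. Without the mixed barcodes 9 of the 12 were still at least 1.5-fold higher, but Hes1 and Inhba then rested on 1 UMI each in control and 3 and 2 in SHP099. Ifit1, Isg15 and Rtp4 belong to the interferon list. The 3 that were not 1.5-fold higher were Col4a1, at 27.1 and 6.02 CPM, Ccl2, at 56.6 and 54.1 CPM, and Ifitm3, at 239 and 220 CPM. Cd74 was at 904 CPM in SHP099 over all members and at 192 CPM in the reduced set, against 70.5 and 76.3 CPM in control. Rbm28, a nucleolar RNA-binding protein of ribosome assembly, was at 22.2 CPM in 7 of 70 control members and 87.2 CPM in 22 of 67 SHP099 members.

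The 12 genes with the smallest ratios were Ccl3, Ero1l, Trbc1, Bnip3, Lgals3, Arap2, Ifng, Stk39, Lag3, Fam204a, Ogn and Tm6sf1, of which 10 were at least 1.5-fold lower in the reduced set as well. The exceptions there were Ero1l, with a ratio of -0.34, and Ogn, with 0.26. The reduced set is part of the same cells, so neither this count nor that of the higher genes is an independent check. The reduced-set intervals include 0 for Bnip3 (-1.65 to 0.10), Arap2 (-1.87 to 0.02), Fam204a (-1.72 to 0.15) and Tm6sf1 (-1.88 to 0.10). Trbc1, the first constant region of the T cell receptor beta chain, was at 684 and 385 CPM in members and 934 and 402 CPM in the other T cells, while Trbc2, the other constant region, was at 1108 and 1170 CPM in members. Lgals3, a galectin, was at 222 and 93.2 CPM in members and 356 and 244 CPM in the other T cells. Bnip3 and Ero1l, both induced by low oxygen, were at 91.1 and 54.1 CPM and at 76.3 and 60.2 CPM in members. Itgb7, an integrin chain of gut-homing T cells from the list of chemokine receptors and integrins, was at 14.8 and 78.2 CPM in members, from 5 of 70 and 16 of 67 cells.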

How the data were processed

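The authors deposited 1 matrix of UMI counts for each library, made with Cell Ranger on mm10 (GRCm38) according to the submitters' processing notes. Software version 3.1.0 stands in the file headers, and no source used here gives the gene annotation. Libraries were 10x Chromium 3' libraries, per the labels' protocols. Counts of 31053 features were used as deposited, and 71 features share a symbol with another.

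Members were found by the rule given above. No doublets were removed, since Scrublet (in scanpy 1.11.5) was run only as an alternative. It called 264 control and 198 SHP099 barcodes of 7952 and 7900, which is 3.32% and 2.51%. Beside the T cell gate, NK cells had Ncr1 and at most 1 Cd3 UMI. Phagocytes had 5 or more UMIs of Lyz2 and Cd68, tumour cells 2 or more of Igf2bp2, Igf2bp3 and Hmga2, and both had no Cd3 UMI and at most 1 UMI of the other's genes. The reduced set leaves out T cells with 3 or more Col3a1 or 20 or more Cd74 UMIs.

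UMIs were summed over cells and scaled to CPM, and log2 ratios used a prior of 1 CPM. Genes with a mean of at least 20 CPM over the sums compared were measured, and past 1.5-fold was counted as higher or lower. A gene could pass this filter through 1 side alone. Intervals of ratios are exact conditional binomial intervals at 95%, those of share ratios are log-normal, and UMIs of a cell are not independent. Shares at 2000 UMIs are expectations under random draws (exact, or over 100 draws with a fixed seed for shares that join genes), with the binomial interval taken at the expected count. Cells are not replicates, so no test or p-value was computed. On simulated sums with the members' depths, 83% of 100 genes raised 2-fold were called 1.5-fold higher, as were 5.33% of unchanged genes. Unchanged genes called lower were not counted. These counts were drawn around the control means without variation between cells, mixed barcodes or a shift of lineage. They therefore do not give the error rate of the real sums.

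Named genes were the 12 largest and 12 smallest ratios between libraries and the 15 of each side between dividing and other T cells, at a mean of 50 CPM or more (between libraries also with UMIs in 10% or more of members of 1 library and the same direction with each cell counted alike), a fixed panel, markers and list members. The 26 gene lists, the rule and the named genes were chosen with earlier results of these data known, and the gene lists are not independent evidence. Tools were Python 3.11.15, numpy 2.4.6, scipy 1.17.1, pandas 2.3.3 and matplotlib 3.10.9. A result on 1 gene of the interferon list is not reported here.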

Additional observations from a re-analysis of the deposited data

How the results depend on the processing

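No paired analysis was possible because each group has 1 library. The ratio of dividing shares lay between 1.24 and 1.60 over its alternatives, which changed the limits on division and Cd3 UMIs, depth, mitochondrial share, doublets and traces of other cells. The limit on traces of other cells was only tightened and never loosened, so the range does not cover the share before these exclusions. The CD8 share of members lay between 83.4 and 90.7% in control and between 66.7 and 76.1% in SHP099. The reduced set and its CD8 cells were alternatives added after the data were seen.

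The counts of genes moved most with the filter on low levels. Without a filter beyond 1 UMI, 3988 genes were 1.5-fold higher and 2139 lower in SHP099 members in place of 834 and 349, and with a mean of 50 CPM 281 and 78. Between dividing and other T cells, no filter gave 3169 and 3642 in control in place of 758 and 686, and 4138 and 2850 in SHP099 in place of 974 and 675. A mean of 50 CPM gave 327 and 291 in control, and 420 and 307 in SHP099. The number of genes measured sets these counts.

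The interferon median between libraries was 0.80 in cells with Cd8 and without Cd4 and 1.15 in the reduced set. The regulatory T cell median was 0.10 in those CD8 cells and -0.025 in those of the reduced set, so its direction did not hold there. These cells may carry Foxp3, unlike the CD8 cells of the main text. Between dividing and other T cells, the respiratory chain median in control was 0.35 with 4 or more division UMIs and 0.35 in the reduced set, in place of 0.27. The naive and memory median in SHP099 was -0.86 with each cell counted alike, -0.70 in CD8 cells, -0.78 in the reduced set and -0.47 in its CD8 cells, in place of -1.03. The kinetochore and spindle median between libraries changed sign at 4 or more division UMIs, to -0.16. The cause of these shifts was not tested. With 70 and 67 cells in the reduced set, genes under about 50 CPM rest on few UMIs, and their intervals are wide.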
